A study of Mus musculus with 8 samples.

Results

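Genes that mark inhibitory and neuromodulatory transmission in the retina were followed through 8 mouse retina libraries: *Gad1*, *Gad2*, *Slc32a1*, *Slc6a9*, *Th*, *Chat*, *Slc18a3*, *Slc17a8*, and *Calb2*. They were chosen by name, and all 9 of 9 were found in every table, among 21830 genes. The libraries came from ICR mice (slc:ICR) with no genetic change or drug treatment given in the labels. They were whole retina at E15 and at E18, and the Cd73-negative (Cd73NC) and Cd73-positive (Cd73PC) cells that were sorted from postnatal retinas (P2, P5, and P8). Retinas of several animals were pooled for each sort, and each condition had 1 library, so no replicate error exists and no test was made. Cd73, the product of *Nt5e*, is a surface enzyme carried by rod precursors and rods. Cd73NC therefore held a mixture of the other retinal cells, and E15 and E18 retinas were not sorted.

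GABA is made from glutamate by the glutamate decarboxylases Gad1 and Gad2, and the vesicular transporter Slc32a1 loads both GABA and glycine into synaptic vesicles. In the retina these transmitters are used mainly by amacrine and horizontal cells, which shape the signal passing from photoreceptors through bipolar cells to ganglion cells. Glycine is taken up again by Slc6a9 (GlyT1). Th makes the dopamine precursor in a sparse amacrine class, Chat and Slc18a3 make and package acetylcholine in starburst amacrine cells, Slc17a8 (VGLUT3) loads glutamate in another sparse amacrine class, and Calb2 (calretinin) is a calcium-binding protein of amacrine and ganglion cells.

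In these libraries *Gad1*, *Gad2*, and *Slc32a1* were highest in Cd73NC at P2 and were lower in both fractions by P8. *Slc6a9* had the opposite distribution between the fractions and was higher in Cd73PC at all 3 stages. *Calb2*, *Slc18a3*, and *Chat* were highest in E18 whole retina, *Th* was highest in E15 whole retina, and *Slc17a8* stayed below FPKM 0.1 in all 8 libraries. FPKM counts sequenced fragments per kilobase of transcript, scaled to the number of mapped fragments, so levels of different genes can be set side by side on this scale. At least 1 library reached FPKM 1 for 7 of the 9 genes, and 13433 of all 21830 genes did so. Of the 72 values of the 9 genes, 10 were listed at 0, and no estimate had failed.

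The start-site regions of the 3 GABA genes are shown because these genes were all highest in Cd73NC at P2, and that of *Slc6a9* because it was higher in Cd73PC. Each covers 250 bases before and 50 bases after a start site in RefSeq on GRCm38.p6, which is a later build than the mm9 of the expression tables. RefSeq regions were at hand for 8 of the 9 genes (all but *Calb2*). *Slc6a9* has 3 start sites in this set, of which the most upstream is printed. All 4 regions lie on the plus strand and are written 5′ to 3′, and capitals mark every match, on either strand, to TATAAA (the TATA box), CANNTG (the E-box bound by bHLH factors), TAATTA (a homeodomain core), GGGCGG (the GC box bound by Sp factors), or TAATCC (the core bound by Otx2 and Crx, added after the expression values had been seen).
Gad1, chr2:70561879-70562178: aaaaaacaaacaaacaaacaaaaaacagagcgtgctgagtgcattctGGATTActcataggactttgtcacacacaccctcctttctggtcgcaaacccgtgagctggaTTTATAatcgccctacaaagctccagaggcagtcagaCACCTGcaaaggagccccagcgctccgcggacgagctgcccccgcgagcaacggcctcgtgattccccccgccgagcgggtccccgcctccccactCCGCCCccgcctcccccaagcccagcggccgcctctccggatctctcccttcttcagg
Gad2, chr2:22622077-22622376: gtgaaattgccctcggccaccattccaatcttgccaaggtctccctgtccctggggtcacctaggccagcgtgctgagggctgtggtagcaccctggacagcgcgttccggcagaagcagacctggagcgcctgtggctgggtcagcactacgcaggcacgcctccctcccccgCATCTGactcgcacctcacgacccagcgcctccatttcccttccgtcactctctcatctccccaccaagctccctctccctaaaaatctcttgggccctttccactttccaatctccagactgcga
Slc32a1, chr2:158610508-158610807: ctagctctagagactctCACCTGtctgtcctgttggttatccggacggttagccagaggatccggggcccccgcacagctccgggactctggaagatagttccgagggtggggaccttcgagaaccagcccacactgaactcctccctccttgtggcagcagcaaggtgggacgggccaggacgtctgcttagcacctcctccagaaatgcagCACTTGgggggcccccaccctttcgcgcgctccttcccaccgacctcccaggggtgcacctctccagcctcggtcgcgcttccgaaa
Slc6a9, chr4:117835008-117835307: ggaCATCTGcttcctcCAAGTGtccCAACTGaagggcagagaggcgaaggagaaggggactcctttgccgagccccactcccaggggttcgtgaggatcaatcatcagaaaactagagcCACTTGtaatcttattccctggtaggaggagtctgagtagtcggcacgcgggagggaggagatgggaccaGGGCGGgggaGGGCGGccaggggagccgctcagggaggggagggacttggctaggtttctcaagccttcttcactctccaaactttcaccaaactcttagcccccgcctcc

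The E-box was the single motif present in all 4 of these regions, with 1 match in *Gad1*, 1 in *Gad2*, 2 in *Slc32a1*, and 4 in *Slc6a9*, and 72.3% of the 32851 RefSeq regions of the same length held it. GC boxes were found in *Gad1* (1 match) and *Slc6a9* (2 matches), against 35.7% of all regions. The other *Slc6a9* regions, not printed, held no match to any motif searched, so the *Slc6a9* counts depend on the start site chosen. *Gad1* also held 1 match to TATAAA (13.6% of all regions), whose first base lay at position -141 from the start site, and 1 to TAATCC (7.06% of all regions) at -203. No match to TAATTA was in the 4 regions (5.29% of all regions). No matches overlapped, although TAATTA and TAATCC share their first 4 letters. The G and C content was 60% in *Gad1*, 61.3% in *Gad2*, 63.3% in *Slc32a1*, and 59% in *Slc6a9*, and its median over all regions was 52.7%. These matches describe letters in a window and do not show that a factor binds there.

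The sort separated rods from other cells, although not fully. The FPKM of *Nt5e* in Cd73NC and Cd73PC was 2.43 and 97.3 at P2. The P5 pair gave 31.4 and 131, and the P8 pair 9.38 and 124. All 8 of 8 rod markers were higher in Cd73PC at each stage. Their summed FPKM was 79.6, 1076, and 980 in the Cd73NC libraries in order of age, against 4088, 8883, and 14078 in those of Cd73PC. Cd73NC at P5 thus carried more *Nt5e* than Cd73NC at the other stages. Steps in the low FPKM values implied about 14600000 to 24400000 mapped reads per library, with a doubt of a factor of 2 in 3 of them. The number of genes at FPKM 1 or more ran from 11153 to 12414.

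**Figure D1:**
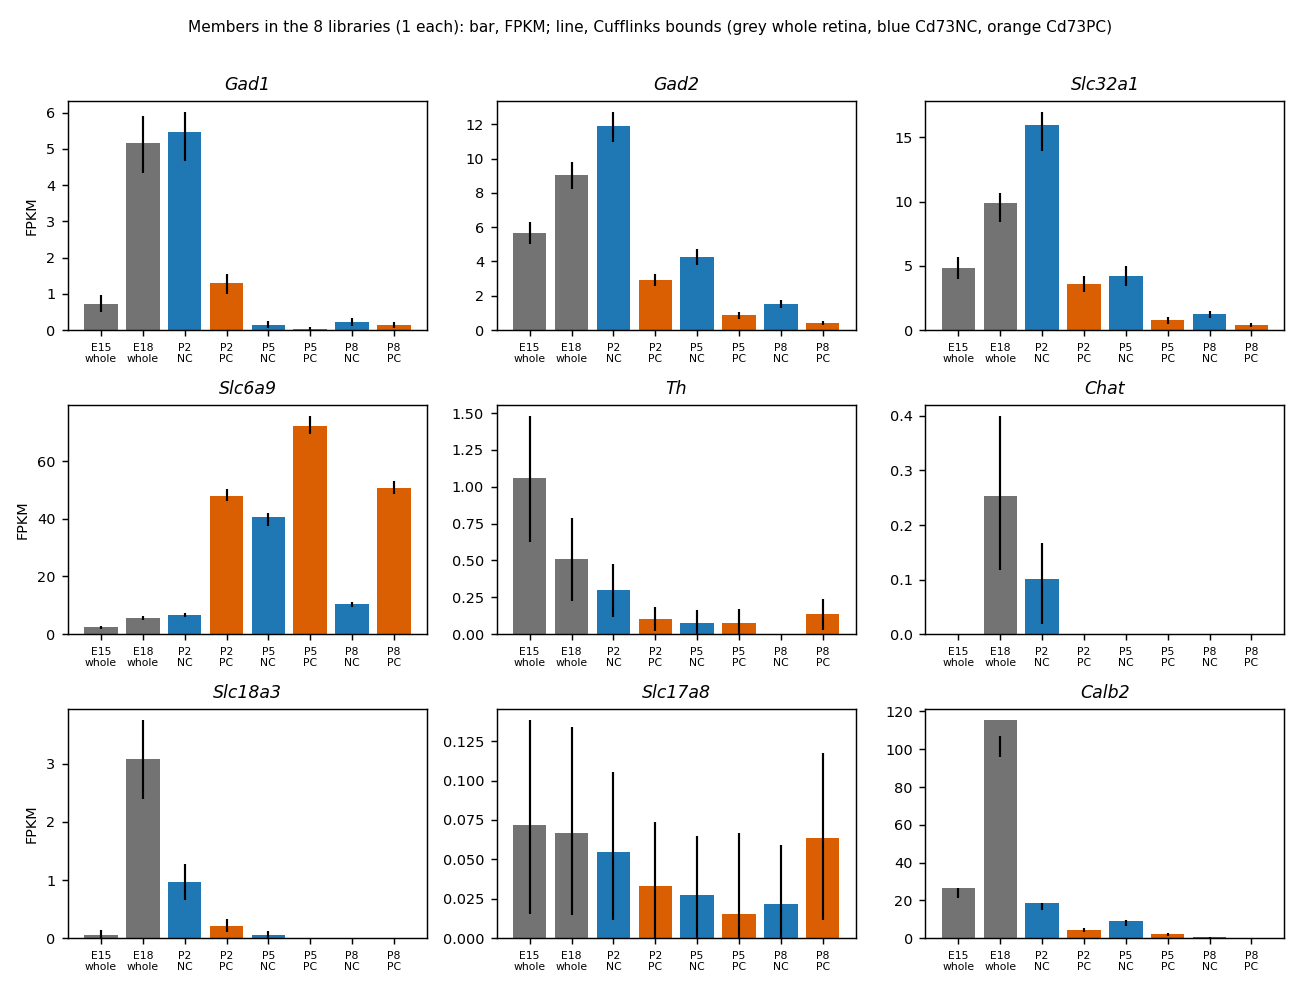
FPKM of the 9 genes (1 panel each, vertical axes with separate scales starting at 0) in the 8 libraries, where bars are the deposited values and lines the Cufflinks confidence bounds; grey is whole retina, blue Cd73NC, and orange Cd73PC. *Gad1*, *Gad2*, and *Slc32a1* peak in Cd73NC at P2, *Slc6a9* is highest in the 3 Cd73PC libraries, and the *Calb2* bar at E18 (116) stands above its own upper bound (107).

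*Gad1* (chr2:70400221-70440069, plus strand, mm9) encodes the decarboxylase GAD67. It had FPKM 0.725 at E15 and 5.16 at E18, then 5.47 in Cd73NC and 1.29 in Cd73PC at P2, 0.152 and 0.0392 in that order at P5, then 0.217 and 0.138 at P8. E18 whole retina and Cd73NC at P2 were the high libraries, and their bounds overlapped. The 4 libraries of P5 and P8 lay below all the others. Their values correspond to about 8 (P5 Cd73NC), 2 (P5 Cd73PC), 15 (P8 Cd73NC), and 8 reads (P8 Cd73PC), and a Poisson 95% interval on 2 reads runs from 0.242 to 7.22 reads. Each neighbour in the order of these 4 libraries had overlapping bounds. The Cufflinks bounds of Cd73NC at P8 (0.109 to 0.326) lay above those of Cd73PC at P5 (0 to 0.0918). Poisson intervals for the same pair overlapped (FPKM 0.122 to 0.359 and 0.00474 to 0.141), so these 4 libraries could not be ordered at the depth used here. The depth of Cd73NC at P8 was in doubt by a factor of 2, and its Poisson interval depends on that depth. The annotated transcript 1500002O10Rik, on the other strand, overlaps the 5′ end of *Gad1* by 1194 bases. The libraries were not made to keep strand, so reads in that stretch cannot be told apart.

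*Gad2* (chr2:22477847-22549397, plus strand) encodes GAD65. Its FPKM was 5.67 at E15, 9.04 at E18, 11.9 in Cd73NC and 2.92 in Cd73PC at P2, 4.28 and 0.856 in the same order at P5, then 1.54 and 0.436 at P8. No neighbours in this order of levels had overlapping Cufflinks bounds, which cover the uncertainty of the estimate in 1 library and not the variation between animals. The highest level was 27.4-fold above the lowest. *Gad2* exceeded *Gad1* on the FPKM scale in all 8 libraries, by 1.75-fold at E18 and 2.18-fold in Cd73NC at P2, but by 28.1-fold in Cd73NC at P5. *Gad1* in Cd73NC fell 35.9-fold from P2 to P5 on the deposited scale, and *Gad2* fell 2.79-fold.

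*Slc32a1* (chr2:158436494-158441483, plus strand) encodes the vesicular inhibitory amino acid transporter. Its FPKM was 4.85 at E15, 9.90 at E18, 16.0 in Cd73NC and 3.62 in Cd73PC at P2, 4.21 and 0.752 in that order at P5, then 1.21 and 0.401 at P8. It followed *Gad2* closely, and the *Slc32a1* level divided by the *Gad2* level stayed between 0.788 and 1.34 in the 8 libraries, a ratio looked at only after both genes had been seen. The bounds of E15 whole retina, Cd73NC at P5, and Cd73PC at P2 overlapped from each to the next in the order of levels. The antisense transcript Gm14205 overlaps the gene by 911 bases.

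*Slc6a9* (chr4:117507863-117541910, plus strand) encodes the glycine transporter GlyT1. Its FPKM was 2.32 at E15, 5.54 at E18, 6.56 in Cd73NC and 47.9 in Cd73PC at P2, 40.7 and 72.3 in that order at P5, then 10.4 and 50.7 at P8. The 3 Cd73PC libraries were the 3 highest, and Cd73PC at P2 and P8 had overlapping bounds. Within Cd73NC the P5 library stood above P2 and P8, as it did for *Nt5e*. The antisense transcript Gm17114, in the annotation but not a row of the tables, spans 33260 bases of the gene, so the strand that gave these reads is unknown.

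*Calb2* (chr8:112666438-112692106, minus strand) had FPKM 26.6 at E15, 116 at E18, 18.8 in Cd73NC and 4.54 in Cd73PC at P2, 8.86 and 2.03 in that order at P5, then 0.607 and 0.170 at P8. It was the most abundant of the 9 genes in both whole retinas and in Cd73NC at P2. Its range over the libraries was 681-fold, and the lowest value rested on about 4 reads. No neighbours in its order of levels had overlapping Cufflinks bounds. Poisson intervals of the P8 pair did overlap (FPKM 0.353 to 0.970 in Cd73NC and 0.0461 to 0.434 in Cd73PC). The E18 value lay above its own upper bound of 107, the only 1 of the 72 values outside its bounds. Ganglion cells also carry calretinin, and the summed FPKM of 10 ganglion cell markers was 1033 at E15, 631 at E18, 25.2 in Cd73NC at P2, and 298 in Cd73NC at P8, of which *Isl1*, also listed for bipolar cells, gave 294.

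*Slc18a3* (chr14:33275623-33278036), the vesicular acetylcholine transporter, lies wholly within *Chat* (chr14:33221389-33279095, minus strand), the acetylcholine-synthesizing enzyme. *Slc18a3* had FPKM 0.0620 at E15, 3.08 at E18, 0.969 in Cd73NC and 0.204 in Cd73PC at P2, 0.0521 in Cd73NC at P5, and 0 in the other 3 libraries. These correspond to about 2, 103, 41, 11, and 2 reads. *Chat* had FPKM 0.254 at E18 (about 10 reads) and 0.10 in Cd73NC at P2 (about 5 reads), and 0 in the other 6 libraries. Both genes were therefore seen above a few reads only at E18 and P2. A count of 0 allows up to 3 reads as a one-sided limit (3.69 reads on the scale of the interval given for *Gad1*), which is FPKM 0.0471 to 0.0786 for *Chat* and 0.0594 to 0.0802 for *Slc18a3* in the libraries at 0. Where both were above 0, *Slc18a3* exceeded *Chat* by 12.1-fold (E18) and 9.67-fold (Cd73NC at P2).

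*Th* (chr7:150078681-150085871, minus strand), the rate-limiting enzyme of dopamine synthesis, had FPKM 1.06 at E15, 0.511 at E18, 0.302 in Cd73NC and 0.105 in Cd73PC at P2, 0.0741 and 0.0763 in that order at P5, then 0 and 0.134 at P8. About 24 reads lay behind the E15 value and at most 12 behind each of the others. Neighbours in the order overlapped throughout, and the 0 in Cd73NC at P8 allows up to FPKM 0.0849. *Slc17a8* (chr10:89036765-89083994, minus strand), the vesicular glutamate transporter VGLUT3, lay between FPKM 0.0153 (Cd73PC at P5) and 0.0718 (E15), with overlapping bounds between all neighbours. Neither gene could be ordered among the P5 and P8 libraries at this depth.

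From E15 to E18 the levels of 6 of the 9 genes rose past 1.5-fold, counted here and below on FPKM + 1, and none fell past it. The 1.5-fold threshold is that of the study, but its text names no added 1, which makes genes of low level harder to call. Of all genes, 4.61% rose past 1.5-fold. The ratios were 4.23 for *Calb2*, 3.84 for *Slc18a3*, 3.57 for *Gad1*, 1.97 for *Slc6a9*, 1.86 for *Slc32a1*, and 1.51 for *Gad2*, which lay at the threshold. *Th* had a ratio of 0.734 with overlapping bounds, and *Chat* and *Slc17a8* were within 1.5-fold. The bounds of the 2 stages did not overlap for the 6 genes that rose. At 2-fold the count was 3.

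At P2, 5 of the 9 genes were higher in Cd73NC (*Gad1*, *Gad2*, *Slc32a1*, *Slc18a3*, and *Calb2*), 1 was higher in Cd73PC (*Slc6a9*), and 3 were within 1.5-fold. Of all genes, 14.4% were higher in Cd73NC and 8.57% in Cd73PC, and among genes with FPKM of at least 1 in either library 25% were higher in Cd73NC. Of the 9 genes, 5 passed that filter, and 4 of those were higher in Cd73NC. The ratios of Cd73NC to Cd73PC were 3.67 for *Slc32a1*, 3.58 for *Calb2*, 3.29 for *Gad2*, 2.83 for *Gad1*, and 1.64 for *Slc18a3*, and that of Cd73PC to Cd73NC was 6.47 for *Slc6a9*. The median log2 ratio of the 9 genes was 0.71, and that of all genes was 0. It depended on the 1 added to FPKM, since several of the 9 genes were near 0, and was 1.81 with 0.1 added and 2.04 with nothing added. In bulk samples such as these, fewer cells of a type and less RNA per cell cannot be told apart.

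At P5, 3 of the 9 genes were higher in Cd73NC and 1 in Cd73PC. Of all genes, 15.6% were higher in Cd73NC (27% of those with FPKM of at least 1) and 7.02% in Cd73PC. With that filter 4 of the 9 genes remained, and 3 of those were higher in Cd73NC. The ratios of Cd73NC to Cd73PC were 3.26 for *Calb2*, 2.97 for *Slc32a1*, and 2.84 for *Gad2*, and *Slc6a9* was 1.76-fold higher in Cd73PC. *Gad1*, at 0.152 and 0.0392, could not reach 1.5-fold on FPKM + 1. The median log2 ratio was 0.07 for the 9 genes (1.96 with nothing added to FPKM) and 0 for all genes. Of all calls, 68.9% were higher in Cd73NC, and 51.1% after quantile normalization.

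At P8, 2 of the 9 genes were higher in Cd73NC and 1 in Cd73PC. Of all genes, 18.6% were higher in Cd73NC (31.3% of those with FPKM of at least 1) and 7.54% in Cd73PC. The share of the 9 genes was thus near that of all genes. Only 3 of the 9 genes reached FPKM 1 in either library, and 2 of those were higher in Cd73NC. *Calb2* was 3.57-fold higher in Cd73NC as deposited but 1.37-fold on FPKM + 1, with about 4 reads in Cd73PC. *Gad2* had a ratio of 1.77 and *Slc32a1* of 1.58, while *Slc6a9* was 4.53-fold higher in Cd73PC. After quantile normalization *Gad2* (log2 ratio 0.44) and *Slc32a1* (0.29) were both below 1.5-fold, and *Slc6a9* remained past it (-2.34). The same scaling moved the share of all calls that were higher in Cd73NC from 71.1% to 50.8%, and the median log2 ratio of genes with FPKM of at least 1 from 0.23 to -0.03. The median log2 ratio of the 9 genes was 0 (1.13 with nothing added to FPKM, where genes listed at 0 drop out).

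The level in Cd73PC, given as a percentage of the level in Cd73NC on the deposited scale, was alike for the members that were higher in Cd73NC. At P2 it was 23.5% for *Gad1*, 24.5% for *Gad2*, 22.7% for *Slc32a1*, 24.1% for *Calb2*, and 21.0% for *Slc18a3*. Among marker genes with FPKM of at least 1 in Cd73NC, the medians nearest to these were 24.8% (18.4 to 31.8%) for 7 progenitor and cycling genes, 23.0% (16.2 to 25.9%) for 3 starburst amacrine markers, and 21.9% (18.4 to 103%) for 6 amacrine markers. The other lists had higher medians, of 35.5% for ganglion cells, 45.0% for Müller glia, 65.1% for bipolar cells, 128% for horizontal cells, 212% for cones, and 5406% for rods. The 3 starburst markers were *Sox2*, *Megf10*, and *Isl1*, since *Chat* and *Slc18a3* were below FPKM 1. *Isl1* is also listed for ganglion and bipolar cells, so this median was not specific to starburst cells. At P5 *Gad2*, *Slc32a1*, and *Calb2* were at 20.0%, 17.9%, and 22.9%, beside medians of 23.5% for the progenitor and 25.8% for the amacrine list. Other lists were as near at P5, with medians of 18.0% for starburst, 18.1% for bipolar, and 20.7% for ganglion cell markers. At P8 *Gad2* and *Slc32a1* were at 28.3% and 33.0%, beside 20.3% for the progenitor and 26.8% for the amacrine list. Müller glia (20.3%) and horizontal cell markers (25.4%) had like medians at P8, so the percentage did not single out a cell type. List medians from 11.9% (bipolar) to 1446% (rod) were found at P8.

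The summed FPKM of the 7 amacrine markers that were measured was 322 in Cd73NC and 108 in Cd73PC at P2, 119 and 43.0 in that order at P5, then 41.4 and 23.3 at P8. Of these, 5 of 7 were higher in Cd73NC at P2, and 4 of 7 at each later stage. The shares of all genes were 14.4%, 15.6%, and 18.6% in order of age. *Ptf1a* and *Neurod6* were listed at 0 in Cd73PC at P8, and no other amacrine marker was at 0 in a sorted library. *Pax6* alone gave 190 of the 322 in Cd73NC at P2, and *Meis2* gave 17.4 of the 23.3 in Cd73PC at P8. Most of the amacrine markers were lower in Cd73PC and fell with age in Cd73NC, as the GABA genes were. *Meis2* was level between the fractions at P2 (103%) and higher in Cd73PC at P8 (17.4 against 7.82), *Neurod6* went from 0.0536 to 1.07 in Cd73NC from P2 to P5, and *Stx1a* was at 2.19 and 2.25 in Cd73NC at P5 and P8. The part of amacrine cells in the levels of the GABA genes was not tested. Rod markers were higher in the same fraction as *Slc6a9*, and their part in its level was likewise not tested.

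**Figure D2:**
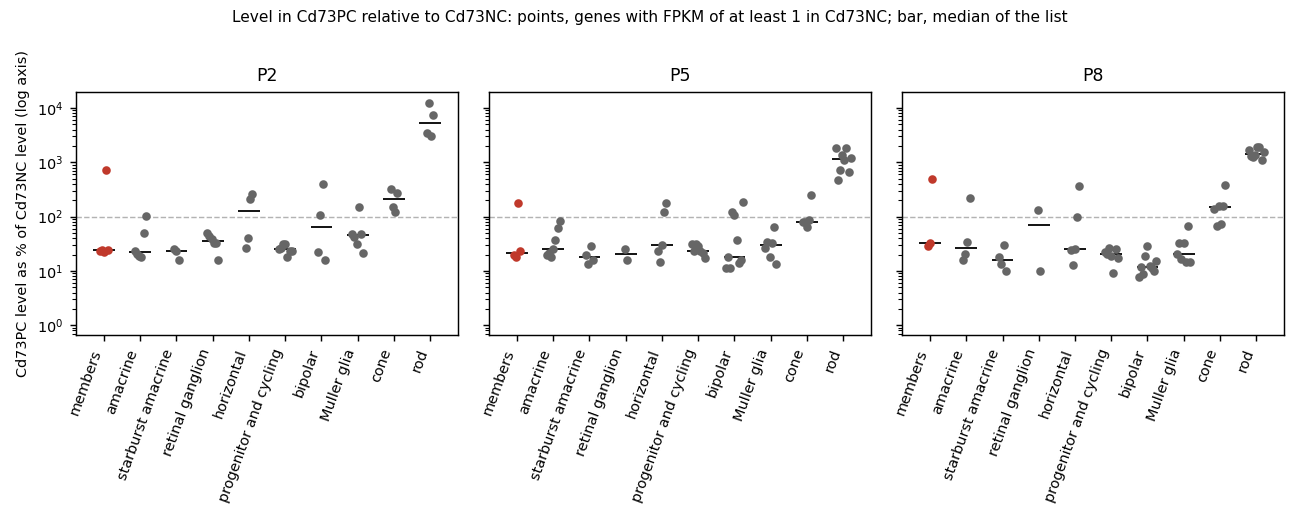
Level in Cd73PC as a percentage of the level in Cd73NC (log axis, dashed line at 100%) at P2, P5, and P8 for the 9 genes (red) and 9 marker lists (grey), where points are genes with FPKM of at least 1 in Cd73NC and bars are medians. At P2 4 of the 5 red points lie between 22.7 and 24.5%, within the range of the progenitor genes, and *Slc6a9* lies at 731%, between most other markers and the rod markers.

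Over time in Cd73NC, 5 of the 9 genes fell past 1.5-fold from P2 to P5 (*Gad1*, *Gad2*, *Slc32a1*, *Slc18a3*, and *Calb2*) and 1 rose (*Slc6a9*). Of all genes, 9.51% fell and 7.93% rose. *Gad1* fell most on FPKM + 1, by 5.61-fold, followed by *Slc32a1* (3.26-fold), *Gad2* (2.45-fold), *Calb2* (2.01-fold), and *Slc18a3* (1.87-fold), and *Slc6a9* rose by 5.51-fold. Beside the rise of *Slc6a9*, *Nt5e* rose by 9.45-fold in the same comparison, and all 8 rod markers rose. Nothing here tests how far rods in the P5 Cd73NC library contributed to it.

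From P5 to P8 in Cd73NC, 4 of the 9 genes fell and none rose, against 7.79% and 8.47% of all genes. *Calb2* fell by 6.14-fold, *Slc6a9* by 3.65-fold, *Slc32a1* by 2.35-fold, and *Gad2* by 2.08-fold. *Gad1* was at its low level at both stages, and its bounds overlapped. Over the whole span from P2 to P8, *Calb2* in Cd73NC ended at 3.22% of its P2 level, *Gad1* at 3.97%, *Slc32a1* at 7.61%, *Gad2* at 12.9%, and *Slc6a9* at 159%.

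From P2 to P5 in Cd73NC, 6 of 7 amacrine markers and 6 of 7 progenitor and cycling genes fell, and 1 amacrine marker rose. In that step 8 of 9 bipolar markers rose, where 9.51% of all genes fell and 7.93% rose. Between P5 and P8, 6 of 7 amacrine markers and 7 of 7 progenitor genes fell, and 9 of 9 bipolar markers rose. The shares of all genes in this second step were 7.79% and 8.47%. The summed FPKM of the bipolar markers in Cd73NC was 192, 462, and 2352 at the 3 stages in order of age. The cells that made up Cd73NC thus gave different marker levels at each stage. A fall per cell and a smaller share of the expressing cells cannot be told apart here.

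In Cd73PC from P2 to P8, 4 of the 9 genes fell (*Gad1*, *Gad2*, *Slc32a1*, and *Calb2*) and none rose, against 14.7% and 6.41% of all genes. The falls were 4.73-fold for *Calb2*, 3.30-fold for *Slc32a1*, 2.73-fold for *Gad2*, and 2.01-fold for *Gad1*. *Slc6a9* differed by a ratio of 1.06 between the 2 stages, with overlapping bounds, although it was higher at P5 between them. These 4 genes therefore fell in both fractions.

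**Figure D3:**
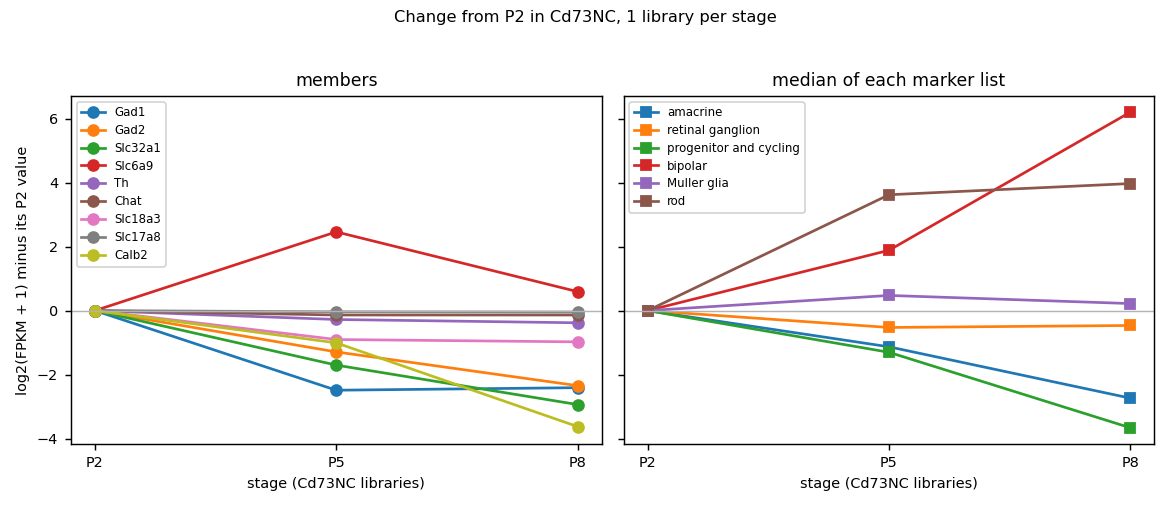
Change in log2(FPKM + 1) from P2 in the Cd73NC libraries at P2, P5, and P8 for the 9 genes (left) and as the median of 6 marker lists (right), with 1 library per stage. *Slc6a9* rises to 2.46 at P5 and returns toward its P2 value, *Gad1*, *Gad2*, *Slc32a1*, and *Calb2* fall, and the bipolar median climbs while the amacrine and progenitor medians fall.

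Other genes of the same transmitter systems were taken from lists by function. Among all genes, 14.4%, 15.6%, and 18.6% were higher in Cd73NC at P2, P5, and P8. Those higher in Cd73PC made up 8.57%, 7.02%, and 7.54% in the same order. List counts such as 1 of 6 or 2 of 9 below lie near the Cd73NC shares. Of 7 genes for GABA synthesis, packaging, uptake, and breakdown, the 3 members among them included, 6 were higher in Cd73NC at P2 and 5 at each later stage, and none was higher in Cd73PC. The median log2 ratio of these 7 genes was 1.5, 1.51, and 0.82 at the 3 stages. The plasma membrane GABA transporter *Slc6a11* (GAT3) had FPKM 32.5, 42.0, and 88.9 in Cd73NC and 12.7, 6.97, and 8.83 in Cd73PC, each in order of age. The GABA transaminase *Abat* had 45.3, 35.4, and 27.2 in Cd73NC. Thus *Slc6a11* and *Abat* stayed at FPKM 27.2 or more in Cd73NC at P8, where *Gad1*, *Gad2*, and *Slc32a1* were at 1.54 or less.

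Among 3 genes for glycine uptake and packaging, *Slc6a9* was higher in Cd73PC at every stage and *Slc32a1* higher in Cd73NC. The third, *Slc6a5* (GlyT2), the transporter of glycine-releasing neurons in spinal cord and brainstem, stayed below FPKM 1 in all 8 libraries. Of 6 dopamine genes, 1 was higher in Cd73NC at P2 (*Nr4a2*, a nuclear receptor of dopaminergic neurons, 8.78 against 2.28) and none at P5 or P8. The vesicular monoamine transporter *Slc18a2* had FPKM 15.2 at E15 and 9.36 at E18 and lay between 0.816 and 1.19 in the 6 sorted libraries.

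Of 4 acetylcholine genes, 1 was higher in Cd73NC and 1 in Cd73PC at P2. The acetylcholine-degrading enzyme *Ache* was at 0.871 in Cd73NC and 4.45 in Cd73PC at P2, 1.66 and 4.13 in that order at P5, then 7.02 and 2.90 at P8, so the fraction with the higher level changed between P5 and P8. Among 3 vesicular glutamate transporters, *Slc17a7* (VGLUT1), that of photoreceptors and bipolar cells, was higher in Cd73PC at all 3 stages and rose to 505 in Cd73PC at P8, while *Slc17a6* (VGLUT2), that of ganglion cells, had FPKM 9.69 at E15 and 8.30 at E18 and at most 0.546 in the sorted libraries. Both were thus far above *Slc17a8* in at least 1 library.

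Of 5 calcium-binding protein genes, the number higher in Cd73NC was 1, 3, and 2 at the 3 stages, and 1 was higher in Cd73PC at P2 (*Cabp5*, 5.66 against 1.39). *Cabp5* and *Scgn* (secretagogin), both found in bipolar cells, reached 183 and 214 in Cd73NC at P8, where *Calb2* was at 0.607. Of 9 neuropeptide and nitric oxide synthase genes, 4 were higher in Cd73NC at P2 and 2 at each later stage, and none was higher in Cd73PC. Neuropeptide Y (*Npy*) had FPKM 19.1, 30.8, and 13.8 in Cd73NC at P2, P5, and P8, somatostatin (*Sst*) fell from 29.0 at E15 to 3.0 at E18, and proenkephalin (*Penk*) had 6.70, 1.76, and 0.472 in Cd73NC.

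**Figure D4:**
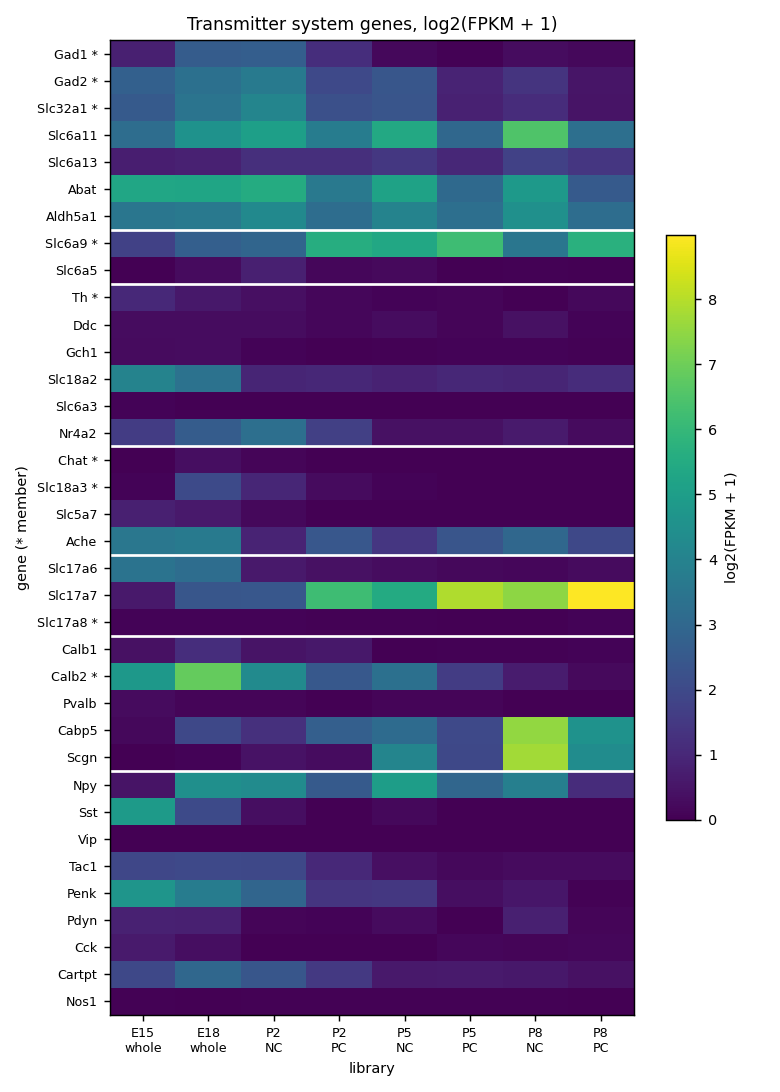
Heat map of log2(FPKM + 1) for the genes of 7 transmitter lists (rows, separated by white lines, with the members marked by an asterisk) in the 8 libraries (columns). *Slc6a9* and *Slc17a7* are brightest in the Cd73PC libraries, and *Slc6a11* and *Abat* stay bright in Cd73NC at P8 while *Gad1*, *Gad2*, *Slc32a1*, and *Calb2* do not.

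Genes of like pattern were sought for the 5 members that reached FPKM 5, as the 3 highest Pearson r of log2(FPKM + 1) among 6554 genes over the 8 libraries, which include 3 pairs of fractions from the same retinas. For *Slc32a1* these were *Rell1* (r = 0.993), Gm14204 (r = 0.993), and *Gad2* (r = 0.991), and 167 genes exceeded r = 0.95. Gm14204 ends 34 bases from the start of *Slc32a1*, and its FPKM was 11.0 in Cd73NC and 2.35 in Cd73PC at P2. For *Gad2* they were *Fam65b*, *Dpy19l1*, and *Atl3* (r = 0.993 to 0.999), and 330 genes exceeded r = 0.95. For *Gad1* they were *Tnnt2* and *Tnni1*, which encode troponin subunits, and *Kcnip1*, a potassium channel partner (r = 0.980 to 0.994), and 15 genes exceeded 0.95. For *Slc6a9* they were *Agpat3*, *Pdk2*, and *Tmem86a* (r = 0.988 to 0.993), and for *Calb2* they included *Tbce* and *Athl1* (r = 0.975 to 0.979). Above r = 0.95 there were 89 genes for *Slc6a9* and 56 for *Calb2*. With Spearman's rho, whose ranks over 8 libraries leave many ties, 63 genes were tied at rho = 1 with *Gad2* and 63 with *Slc32a1*, 14 with *Slc6a9*, and 17 with *Calb2*. Counting ties, the genes by rho included all 3 of those by r for *Gad2*, 2 for *Slc6a9*, 1 for *Slc32a1*, 1 for *Gad1*, and none for *Calb2*.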

How the data were processed

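Poly(A) RNA was sequenced as single-end reads. Per the labels and the study's methods, the authors aligned the reads to NCBI37/mm9 with TopHat2 (2.0.8b) and deposited FPKM per gene with confidence bounds from Cufflinks (2.1.1), and the submitters' processing notes also name CASAVA (1.8.2) and bcl2fastq (1.8.4). No counts were used here. Gene positions were checked against GENCODE vM1 on the same build: 21112 of 21187 genes overlapped.

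Rows with a failed estimate (4 to 10 per library) were taken as missing, 794 small RNA rows were dropped by symbol, and 234 symbols that appeared more than once were each summed to 1 value, giving 21830 genes. Folds were taken on FPKM + 1 with a threshold of 1.5 and no test, since each condition had 1 library (Python 3.11.15, pandas 2.3.3). The fold counts and the depth search were tested on simulated data. The depth simulation held exact whole reads and used the capped search described below, so it could not detect a doubled depth. The 9 genes and all lists were chosen with earlier results of these data known. Named genes were all members, list genes with FPKM of at least 5 in any library, and the 3 genes of most like pattern per member with FPKM of at least 5. *Isl1*, *Sox2*, *Megf10*, *Pax6*, *Meis2*, *Stx1a*, *Ptf1a*, *Neurod6*, and *Slc6a5* were named after their values were seen. Tfap2a, Tfap2b, and Tfap2c of the amacrine list were not analysed here, and 1 gene of the GABA list and 1 of like pattern are not reported here.

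Mapped reads were estimated from the whole-read steps of low FPKM values in 1094 to 1260 genes per library with an annotated transcript of the same ends, assuming fragments of 200 ± 80 bases. At the kept depth, 65.6 to 70.2% of these values lay within 0.06 of a whole read, where an even spread gives 12%. This was the third try. A try on 1-exon genes gave higher and scattered depths, and a search up to 80000000 reads put the best depth of E18 whole retina, P2 Cd73PC, and P8 Cd73NC 1.99 to 2.00 times higher. The search was then capped at 27000000 reads, a limit chosen after seeing those results, because values near 1 read far outnumbered those midway between whole reads.

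Reads behind a gene were given only where its low values came out within 0.1 of whole numbers. This rule was set after the values were seen. For *Gad1* and *Th* the transcript length was also fitted, as the best of 101 factors, so their closeness to whole reads is partly due to that fit. Intervals and floors cover counting error only.

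Alternatives were other pseudocounts, upper quartile, quantile, and sum scaling, a 2-fold threshold, separate bounds, and a filter on low FPKM.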

Additional observations from a re-analysis of the deposited data

How the results depend on the processing

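Leaving out a replicate was not possible with 1 library per condition. The fractions form 3 pairs by stage, but the stages are separate conditions, and a fit that takes them as replicates was not run. With a pseudocount of 0.1 or 0, 5 members were higher in Cd73NC at P5, and with 0, 4 were at P8. At P8 the count was 0 with quantile normalization (small RNAs left out or kept) and with a 2-fold threshold, and from E15 to E18 it was 3 with a 2-fold threshold. The median log2 ratio of the members at P2 was 1.81 with a pseudocount of 0.1 and 2.04 with 0, and with 0 it was 1.96 at P5 and 1.13 at P8, where genes listed at 0 give no value. All other counts and medians stayed within 1.5-fold of the reported value. Of 129 single log2 ratios between the fractions, 107 stayed within 1.5-fold of the reported value, 22 moved (all with a pseudocount of 0.1 or 0), and 0 of the called ones changed sign. Counts of members that fell, upper quartile and other scalings of all calls, the ratio of *Slc32a1* to *Gad2*, the second background, the count of ties in Spearman's rho, the TAATCC motif, and the depth and read estimates were chosen after seeing the data. Values under about 10 reads, which hold for *Chat*, *Th*, and *Slc18a3* at P5 and P8, do not order those libraries among themselves. The same holds for *Gad1* at P5 and in Cd73PC at P8. *Calb2* in Cd73PC at P8 was likewise not ordered against Cd73NC at P8 by Poisson intervals. Against P2 the intervals of these 2 genes were apart, as for *Calb2* in Cd73PC (FPKM 3.80 to 5.35 at P2 and 0.0461 to 0.434 at P8).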
